A study of Sus scrofa with 3 samples.

Results

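Interleukins and their receptors were followed in visceral adipose tissue (VAT) of miniature pigs. The members were the mRNA genes whose deposited name begins with IL and a number, apart from IL4I1, which encodes an amino acid oxidase. They came to 67 of 22826 mRNA genes, namely 29 ligands, 34 receptor chains and 4 antagonists or decoys. VAT was retroperitoneal fat of male Wuzhishan miniature pigs, a small Chinese breed, which were 6 to 7 months old when obtained. They were divided into the groups after 7 weeks on a standard diet without cholesterol. Thereafter they ate a diet rich in fat and cholesterol (HFC) for 12 weeks. IM pigs were intact and received skin incisions only, CM denotes castrated pigs, and CMT denotes castrated pigs that were given 10 mg/kg testosterone propionate by weekly intramuscular injection. Every group received the HFC diet, so no pigs on a normal diet entered the comparisons. RNA was pooled within each group, from 4 to 6 pigs by the labels and from 4 by the study's methods, and 1 library per group was sequenced. No difference below therefore has a replicate check in the sequencing data, and none was tested between conditions here.

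Interleukins are secreted signals between leukocytes and the cells around them. Most bind receptors that join a ligand-specific chain to a chain shared by several interleukins, and many of these receptors signal through JAK kinases and STAT transcription factors, whereas receptors of the interleukin-1 family signal through MYD88 and IRAK kinases. Decoy receptors and soluble binding proteins capture a ligand without passing its signal on. In adipose tissue, macrophages, lymphocytes, stromal cells and adipocytes all take part in this exchange. In pooled tissue RNA, fewer cells of a type and less RNA per cell cannot be told apart.

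Levels are given in UQRPKM, which are reads per kilobase of gene scaled by each library's upper quartile, so that genes and libraries can be set side by side. Reads behind each value were recovered from the deposited values, and the libraries held between 13449107 and 14844063 reads on mRNA genes. Values of the 3 libraries are given in the order IM, CM, CMT throughout. Members held 8856, 8255 and 8645 reads. The 95% intervals were computed by the exact Clopper-Pearson method from the reads of a pair of libraries or genes. They cover counting error only, and not variation between pigs, pools or libraries. A ratio between different genes also depends on the gene lengths used, recovered as 760 bases for IL6R and 2993 for IL6ST, for example. The intervals do not cover errors in these lengths, which would shift such a ratio by the same factor in every library. Amplified reads are not independent molecules, so the intervals can be too narrow even for counting error. The labelled tissue was checked against adipocyte markers. ADIPOQ, the adipocyte hormone adiponectin, had 74928, 69193 and 63873 UQRPKM, and PLIN1, a coat protein of lipid droplets, had 18397, 18587 and 12504. Of the 12 adipocyte markers on the list, 10 were matched by name, of which only CIDEA was listed at 0.

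Receptor chains made up most of the interleukin signal in VAT. Their summed level was 2353, 2256 and 2316 UQRPKM, while the ligands summed to 442, 439 and 481 and the antagonists and decoys to 49.7, 57.4 and 44.6. Ligands were also listed at 0 more often. In all 3 libraries, 12 of 29 ligands (41.4%) and 4 of 34 receptor chains (11.8%) were listed at 0, beside 26.2% of all mRNA genes. The ligands at 0 throughout were IL2, IL4, IL9 and IL21, which act through the common gamma chain, IL19, IL20, IL22 and IL24 of the interleukin-10 family, and IL17F, IL27, IL28B and IL31. The receptor chains at 0 throughout were IL10RB, IL17RB, IL22RA1 and IL23RA. Such a listing need not mean that a gene was silent, since 5 of 61 ribosomal protein genes were listed at 0 as well.

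Of the other ligands, IL6, IL8, IL12A, IL12B, IL13 and IL17A rested on at most 4 reads over the 3 libraries. IL6, a cytokine of the acute-phase response, had 1, 2 and 1 reads, or 0.598, 1.25 and 0.610 UQRPKM. IL8, a chemokine that attracts neutrophils, had 2 reads in CM and was listed at 0 elsewhere. Both chains of interleukin-12 were seen in IM alone, IL12A with 3 reads and IL12B with 1. No fold change is given for these 6 ligands, because every library lay at or under 3 reads. A difference between libraries was not detectable at this depth for any of them.

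The measurable ligands were led by 3 genes. IL15, a growth factor of natural killer and memory T cells, had 117, 91.9 and 108 UQRPKM. IL17D, a distant relative of IL17A, had 89.2, 81.8 and 115. IL33, a nuclear alarm signal of stromal and endothelial cells, had 79.3, 89.0 and 117. Together they made up 64.6% of the ligand sum in IM, 59.8% in CM and 70.8% in CMT. IL15 stood above IL17D in IM only, and IL17D and IL33 were not separated by their counting intervals in any library. Next came IL16, a chemoattractant of CD4+ cells that is cut from a larger precursor, which was the ligand with the flattest levels at 41.9, 43.7 and 43.6 UQRPKM. IL16 and IL17B, and IL17B and IL18, were likewise not separated in any library.

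**Figure D1:**
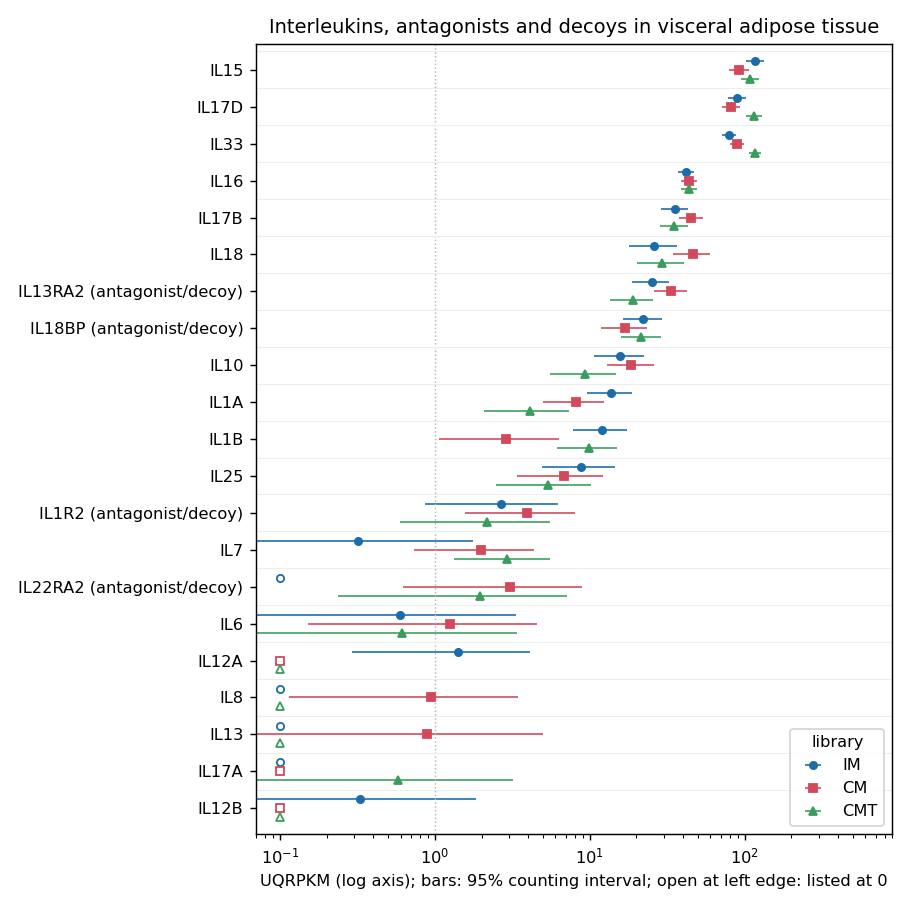
Levels of the 17 ligands and 4 antagonists or decoys that were above 0 in a library, in UQRPKM on a log axis, with 1 point per library and 95% counting intervals as bars. Open points at the left edge are listed at 0, and bars that pass this edge are clipped. IL15, IL17D and IL33 lie near 100 UQRPKM in every library, whereas IL1A, IL1B and IL10 lie between 2.89 and 18.6.

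The receptor chains spanned a wider range. IL11RA, the specific chain for interleukin-11, led with 502, 511 and 492 UQRPKM, a level above that of 92.3% of mRNA genes in IM. It was followed by IL13RA1, which pairs with IL4R to bind interleukin-4 and interleukin-13, at 337, 378 and 469 UQRPKM. IL11RA stood above IL13RA1 in IM and CM, and they were not separated in CMT. A group of 7 chains lay between 98.2 and 206 UQRPKM, namely IL6ST, IL2RG, IL1R1, IL4R, IL6R, IL10RA and IL17RC. The order within this group differed between libraries, and IL6ST, for instance, stood above IL2RG in CM only. IL17RC stood above the next chain, IL27RA, in all 3 libraries. At the low end, IL5RA, IL31RA, IL17REL and IL1RAPL1 rested on at most 3 reads over all libraries.

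**Figure D2:**
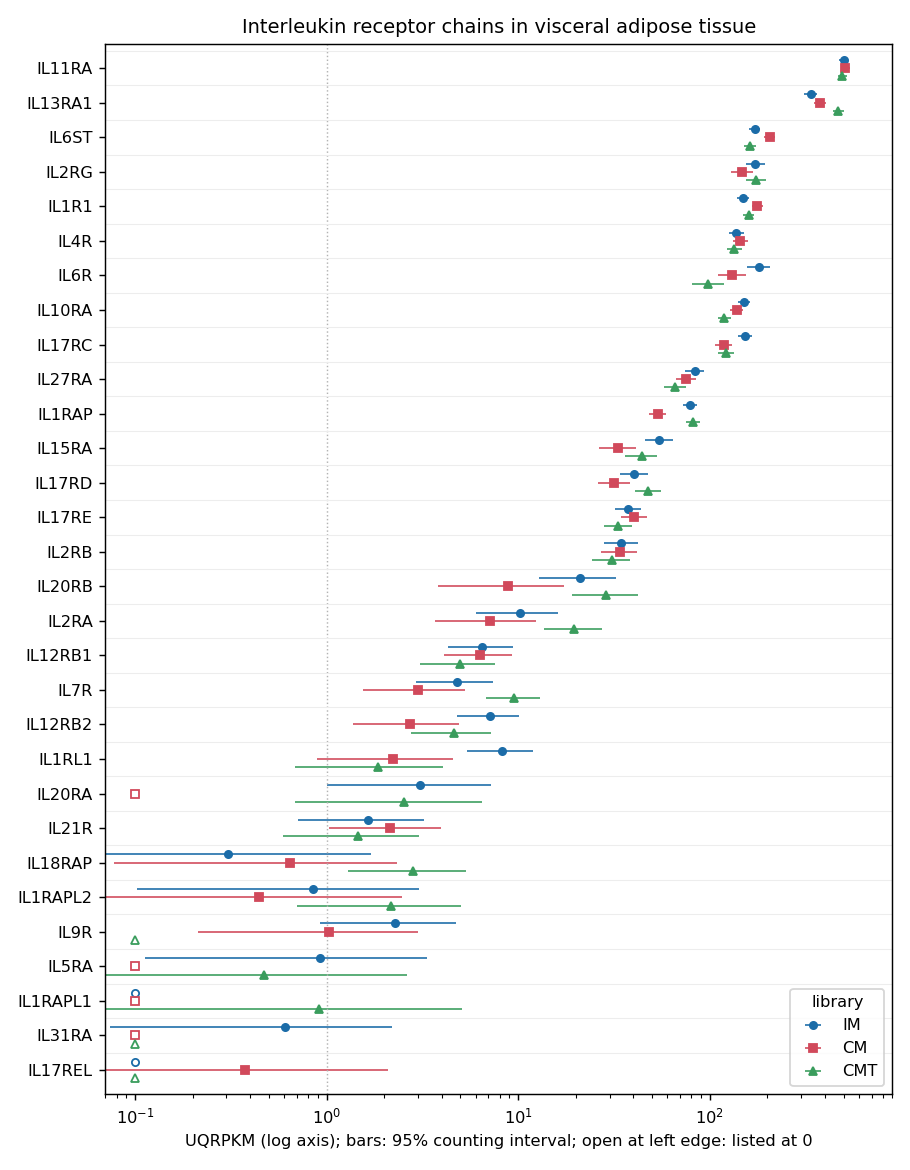
Levels of the 30 receptor chains above 0 in a library, in UQRPKM on a log axis, with 1 point per library and 95% counting intervals as bars. Open points at the left edge are listed at 0, and bars that pass this edge are clipped. IL11RA leads in every library at 492 to 511 UQRPKM, and the 3 points of most chains above 30 UQRPKM lie close together, with IL6R, IL15RA, IL1RAP and IL17RD more spread, by 1.84-fold, 1.64-fold, 1.53-fold and 1.51-fold.

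Calls required a fold of 1.5 or more and a level of 1 UQRPKM or above on both sides, which are the study's thresholds without its test. In CM versus IM, 9 of 36 members that could be called were called, or 25%, beside 18.8% of all mRNA genes. Of these, 1 was higher, beside 8.38% of all mRNA genes, and 8 were lower, beside 10.4%. Testosterone replacement, CMT versus CM, gave calls for 13 of 37 members, or 35.1%, beside 19.5% of all mRNA genes. Here 7 were higher, beside 9.53%, and 6 were lower, beside 9.97%. Between CMT and IM, 8 of 36 members were called, or 22.2%, beside 20.7% of all mRNA genes, with 2 higher, beside 8.81%, and 6 lower, beside 11.9%. Several called members had few reads, for which a ratio of 1.5 lies within counting error. Calls whose counting interval also excluded a ratio of 1 numbered 6, 9 and 5 for these comparisons in turn, beside 11.7%, 12.4% and 13.5% of all mRNA genes. With an exact binomial test on the reads added to the thresholds, which compares libraries and not conditions, 5, 7 and 4 members were called, beside 10.1%, 10.6% and 11.9%. The comparisons share libraries, so their calls are not independent of each other.

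The median log2 ratio of the members was -0.14 for castration (CM versus IM), -0.11 for CMT versus CM and -0.14 for CMT versus IM, beside -0.06, -0.02 and -0.08 over all mRNA genes that could be called. In CM versus IM, 16 of 23 receptor chains and 5 of 10 ligands had a lower value in CM, as did 8015 of 14123 mRNA genes. Of the 35 members with at least 1 UQRPKM in every library, 19 stayed within 1.5-fold over all 3, which is 54.3%, beside 67.2% of all mRNA genes. IL11RA varied least, by 1.04-fold, and IL1RL1 most, by 4.41-fold.

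**Figure D3:**
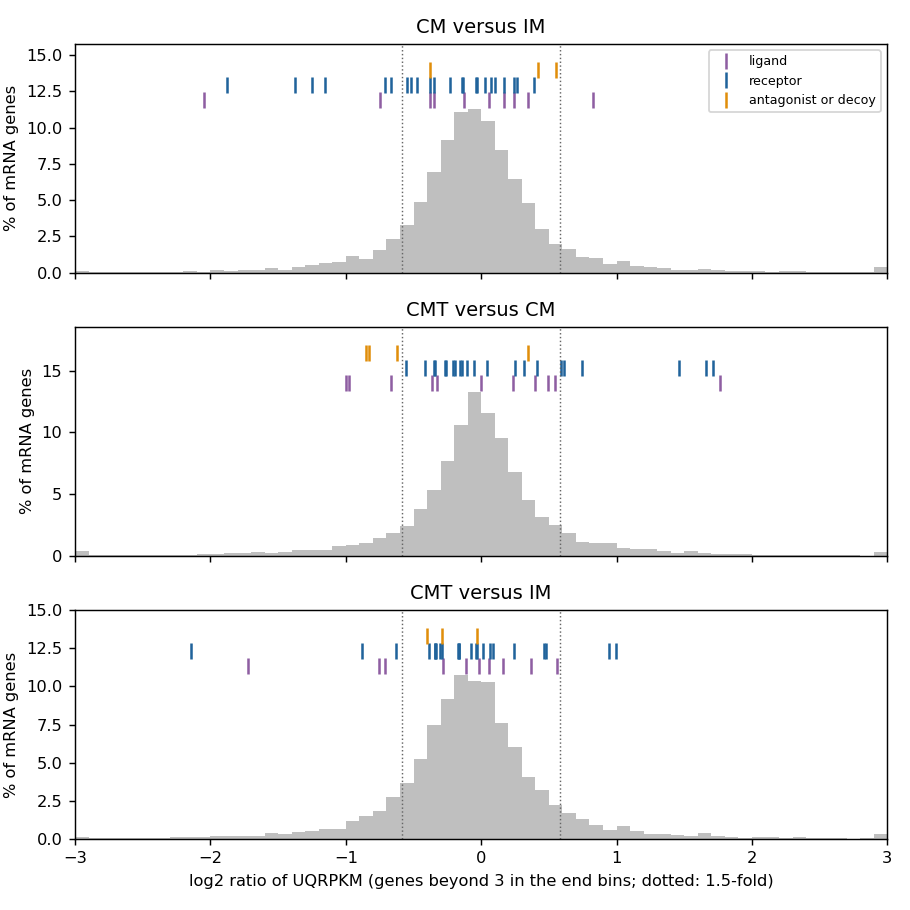
Histograms of the log2 ratio of UQRPKM over all mRNA genes that reached 1 UQRPKM on both sides, 1 panel per comparison, in percent of genes, with the members as coloured ticks above them and dotted lines at 1.5-fold. Most members lie over the body of the histogram, and 9, 13 and 8 of them lie beyond the lines in the panels for CM over IM, CMT over CM and CMT over IM.

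In the interleukin-1 family, the ligands differed from each other in their pattern. IL1B, the classical secreted inflammatory cytokine of macrophages, had 11.95, 2.89 and 9.85 UQRPKM, from 26, 6 and 21 reads. CM was low, and the other libraries lay close together. The log2 ratio was -2.05 (95% interval -3.62 to -0.73) in CM versus IM, 1.77 (0.41 to 3.37) in CMT versus CM and -0.28 (-1.18 to 0.61) in CMT versus IM. IL1A, which shares the receptor of IL1B and is released by damaged cells, had 13.6, 8.11 and 4.13 UQRPKM from 37, 21 and 11 reads. It was lowest in CMT, at -1.72 (-2.84 to -0.72) versus IM. It passed the fold threshold on each step as well, at -0.75 and -0.97, but with intervals that included 0. The ratio of IL1A to IL1B was 1.14 (0.671 to 1.96) in IM, 2.80 (1.09 to 8.48) in CM and 0.419 (0.183 to 0.910) in CMT, so the more abundant ligand was IL1A in CM and IL1B in CMT.

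IL18, which needs cleavage by caspase-1 like IL1B and induces interferon gamma, had 26.0, 46.1 and 29.1 UQRPKM, from 32, 54 and 35 reads. It was the only member called higher in CM versus IM, with a log2 ratio of 0.82 (0.17 to 1.503), and it was called lower in CMT versus CM at -0.67 (-1.32 to -0.03). IL18BP, the soluble protein that captures interleukin-18, had 21.98, 16.9 and 21.5 UQRPKM, and all its intervals included 0. The ratio of IL18 to IL18BP was 1.18 (0.734 to 1.89) in IM, 2.72 (1.75 to 4.27) in CM and 1.35 (0.846 to 2.14) in CMT. The interval thus lay above 1 in CM only. IL18RAP, the accessory chain of the interleukin-18 receptor, had 1, 2 and 9 reads, and its ratio in CMT versus IM was 9.18 with an interval from 1.27 to 403.

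IL33 was higher and its receptor lower in CMT than in IM. IL33 was higher by 0.56 (0.36 to 0.77) on the log2 scale in CMT versus IM and by 0.40 (0.20 to 0.59) in CMT versus CM. Its 1.48-fold difference in CMT versus IM lay just under the threshold, and scaling by the total UQRPKM of mRNA genes put it just past the threshold at a log2 ratio of 0.61. IL1RL1, the specific receptor chain for interleukin-33, had 8.19, 2.23 and 1.86 UQRPKM, from 27, 7 and 6 reads. Both castrated groups were low, with log2 ratios of -1.88 (-3.32 to -0.64) in CM versus IM and -2.14 (-3.71 to -0.83) in CMT versus IM. Relative to IL1RL1, the level of IL33 was 9.68-fold (6.54 to 14.9) in IM, 39.9-fold (19.2 to 100.05) in CM and 63.1-fold (28.8 to 173) in CMT.

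The shared accessory chain IL1RAP, which completes the receptors for interleukin-1 and interleukin-33, had 78.5, 53.7 and 82.2 UQRPKM, from 553, 360 and 567 reads. CM was the low library. Its log2 ratio was -0.55 (-0.75 to -0.36) in CM versus IM, which lay under the fold threshold, and 0.62 (0.42 to 0.81) in CMT versus CM, which passed it. IL1R1, the signalling receptor for IL1A and IL1B, went the other way at 149.9, 178 and 159.6 UQRPKM, with 0.25 (0.10 to 0.39) in CM versus IM. The ratio of IL1RAP to IL1R1 was 0.524 (0.469 to 0.585) in IM, 0.302 (0.266 to 0.342) in CM and 0.515 (0.462 to 0.574) in CMT. The decoy IL1R2 had only 5, 7 and 4 reads, and the level of IL1R1 was 45.5-fold to 73.5-fold that of IL1R2 in the 3 libraries. Its call as lower in CMT versus CM, at -0.85, had an interval from -3.07 to 1.13.

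**Figure D4:**
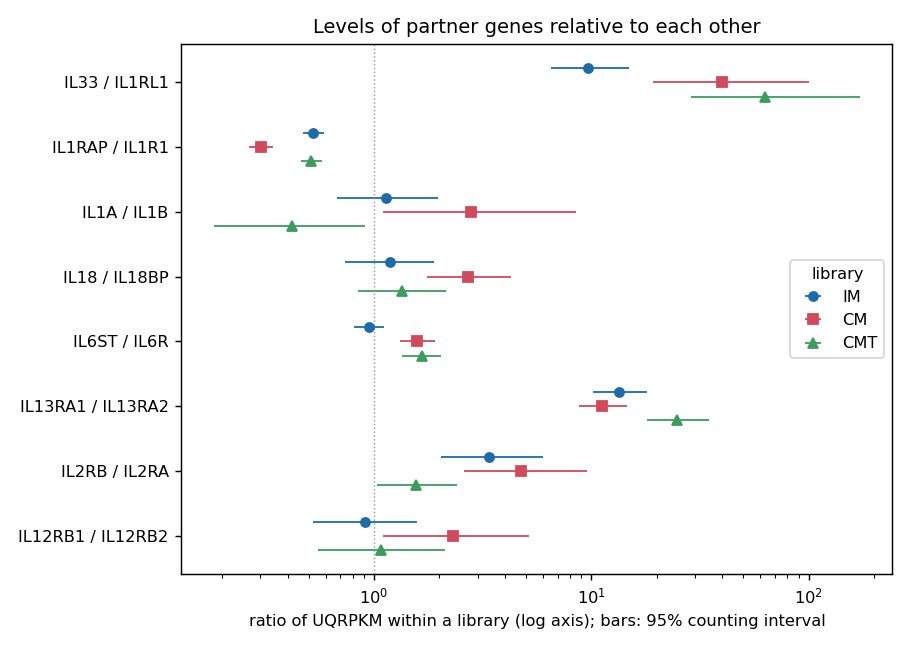
Ratios of UQRPKM between partner genes within a library on a log axis, with 1 point per library and 95% counting intervals as bars, and a dotted line at equal levels. The interval of CM lies apart from those of IM and CMT for IL1RAP over IL1R1, and that of IM lies apart from the other libraries for IL33 over IL1RL1 and IL6ST over IL6R. That of CMT lies apart from CM, but not from IM, for IL1A over IL1B, IL13RA1 over IL13RA2 and IL2RB over IL2RA.

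Among members of the interleukin-6 family, only receptor chains had more than 4 reads in all. IL6R, the specific chain for interleukin-6, had 181, 131 and 98.2 UQRPKM, from 205, 141 and 109 reads. The level was highest in intact pigs and lowest in CMT. Its log2 ratio was -0.88 (-1.23 to -0.54) in CMT versus IM, which was called lower, -0.47 (-0.79 to -0.15) in CM versus IM and -0.41 (-0.79 to -0.04) in CMT versus CM. IL6ST, the signalling chain gp130 that the family shares, had 172, 206 and 162 UQRPKM and was highest in CM, by 0.26 (0.12 to 0.41) versus IM. IL6ST and IL6R stood level in IM, at a ratio of 0.948 (0.811 to 1.11), whereas IL6ST was higher by 1.58-fold (1.32 to 1.90) in CM and 1.65-fold (1.35 to 2.04) in CMT. IL11RA did not pass any threshold, and its log2 ratio of 0.03 in CM versus IM had an interval from -0.08 to 0.14. IL27RA, which pairs with IL6ST to bind interleukin-27, had 83.4, 75.6 and 66.0 UQRPKM, with -0.34 (-0.58 to -0.09) in CMT versus IM.

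Among the receptors of the common gamma chain family, a pair of T cell chains was highest in CMT. IL7R, the interleukin-7 receptor of naive and memory T cells, had 4.79, 3.01 and 9.52 UQRPKM, from 20, 12 and 39 reads. Its log2 ratio was 1.66 (0.70 to 2.73) in CMT versus CM and 0.99 (0.18 to 1.85) in CMT versus IM. IL2RA, the CD25 chain of regulatory and activated T cells, had 10.19, 7.13 and 19.7 UQRPKM from 18, 12 and 34 reads, with 1.46 (0.48 to 2.55) and 0.95 (0.08 to 1.86), respectively. In CM versus IM, IL7R was called lower at -0.67, with an interval from -1.83 to 0.44. Their partner IL2RG, the common gamma chain itself, had 173, 148 and 175 UQRPKM, and all its intervals included 0. IL2RB, which binds interleukin-2 and interleukin-15, had 34.6, 34.0 and 30.7, again with intervals that included 0. The ratio of IL2RB to IL2RA was 3.40 (2.03 to 5.98) in IM, 4.76 (2.59 to 9.58) in CM and 1.56 (1.03 to 2.41) in CMT. IL7, the ligand of IL7R, had 1, 6 and 9 reads, with a ratio of 9.18 (1.27 to 403) in CMT versus IM.

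IL15 and its private chain were both lower in CM than in IM. IL15RA, which presents interleukin-15 to neighbouring cells, had 54.6, 33.3 and 44.2 UQRPKM, from 136, 79 and 108 reads. Its log2 ratio of -0.71 (-1.13 to -0.30) in CM versus IM was called lower, while that of IL15, at -0.35 (-0.64 to -0.06), lay within 1.5-fold. In CMT versus CM the intervals of both genes included 0. The level of IL15 was 2.14-fold to 2.76-fold that of IL15RA, and these ratios were not separated between libraries.

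Among the chains for interleukin-4 and interleukin-13, only the decoy was called. IL4R had 138, 145 and 134 UQRPKM, and all its intervals included 0. IL13RA1 was higher in CMT than in IM by 0.48 (0.33 to 0.63) on the log2 scale and than in CM by 0.31 (0.17 to 0.46), both within 1.5-fold. The ratio of IL13RA1 to IL4R was 2.45 (2.17 to 2.76) in IM, 2.61 (2.32 to 2.93) in CM and 3.49 (3.12 to 3.91) in CMT, so that CMT lay apart. IL13RA2, the decoy for interleukin-13, had 25.03, 33.6 and 18.9 UQRPKM, from 54, 69 and 40 reads, and was called lower in CMT versus CM at -0.83 (-1.43 to -0.24). The ratio of IL13RA1 to IL13RA2 was 13.4 (10.18 to 18.1) in IM, 11.3 (8.77 to 14.6) in CM and 24.8 (18.1 to 34.9) in CMT. IL21R, with 8, 10 and 7 reads, had intervals that included 0. IL9R had 7, 3 and 0 reads. It was called lower in CM versus IM at -1.15, with an interval from -3.74 to 0.98, and the counting interval of its ratio in CMT versus IM ran from 0 to 0.708.

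In the interleukin-10 family, IL10, the main cytokine that restrains macrophages, had 15.7, 18.6 and 9.28 UQRPKM, from 31, 35 and 18 reads. It was called lower in CMT versus CM, at -0.999 (-1.91 to -0.14) on the log2 scale, and in CMT versus IM, at -0.75 with an interval from -1.68 to 0.13. Its receptor chain IL10RA had 152, 138 and 119 UQRPKM, with -0.34 (-0.50 to -0.19) in CMT versus IM. IL20RB, a chain for interleukins of the skin and other epithelia, had 21.0, 8.80 and 28.9 UQRPKM from 20, 8 and 27 reads, so that CM was low. Its log2 ratio was -1.25 (-2.64 to -0.01) in CM versus IM and 1.71 (0.54 to 3.06) in CMT versus CM. IL20RA, which pairs with it, had 5, 0 and 4 reads, and the counting interval of its ratio in CM versus IM ran from 0 to 1.145 and so included equal levels. IL22RA2, a soluble decoy for interleukin-22, had 0, 3 and 2 reads, and it met the thresholds as lower in CMT versus CM on these reads alone.

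Receptors of interleukin-12 were low in level. IL12RB2, the signalling chain on type 1 helper T cells and natural killer cells, had 7.11, 2.74 and 4.60 UQRPKM, from 30, 11 and 19 reads, with -1.38 (-2.52 to -0.34) in CM versus IM. It was also called higher in CMT versus CM, at 0.75, and lower in CMT versus IM, at -0.63, with intervals that included 0. IL12RB1, its partner that is also used by interleukin-23, had 6.48, 6.31 and 4.96 UQRPKM, and all its intervals included 0. The ratio of IL12RB1 to IL12RB2 was 2.31 (1.10 to 5.17) in CM, and in IM and CMT its intervals included 1.

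The interleukin-17 family was represented by IL17D, IL17B and IL25 and by 3 measurable receptor chains. IL17D was higher in CMT than in CM by 0.49 (0.23 to 0.76) and than in IM by 0.37 (0.11 to 0.62), both within 1.5-fold. IL17B had 35.5, 45.2 and 35.1 UQRPKM, and IL25, an epithelial alarm signal, had 8.82, 6.78 and 5.40 from 15, 11 and 9 reads, and all their intervals included 0, although IL25 passed the fold threshold in CMT versus IM at -0.71. IL17RC, which joins the receptor for IL17A and IL17F, had 154, 118 and 122 UQRPKM and was lower in both castrated groups, by -0.38 (-0.57 to -0.19) in CM and -0.34 (-0.52 to -0.15) in CMT. IL17RD had 40.4, 31.6 and 47.7 UQRPKM and passed the threshold narrowly in CMT versus CM, at 0.59 (0.24 to 0.95). IL17RE had 37.5, 40.3 and 33.4, with intervals that included 0.

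**Figure D5:**
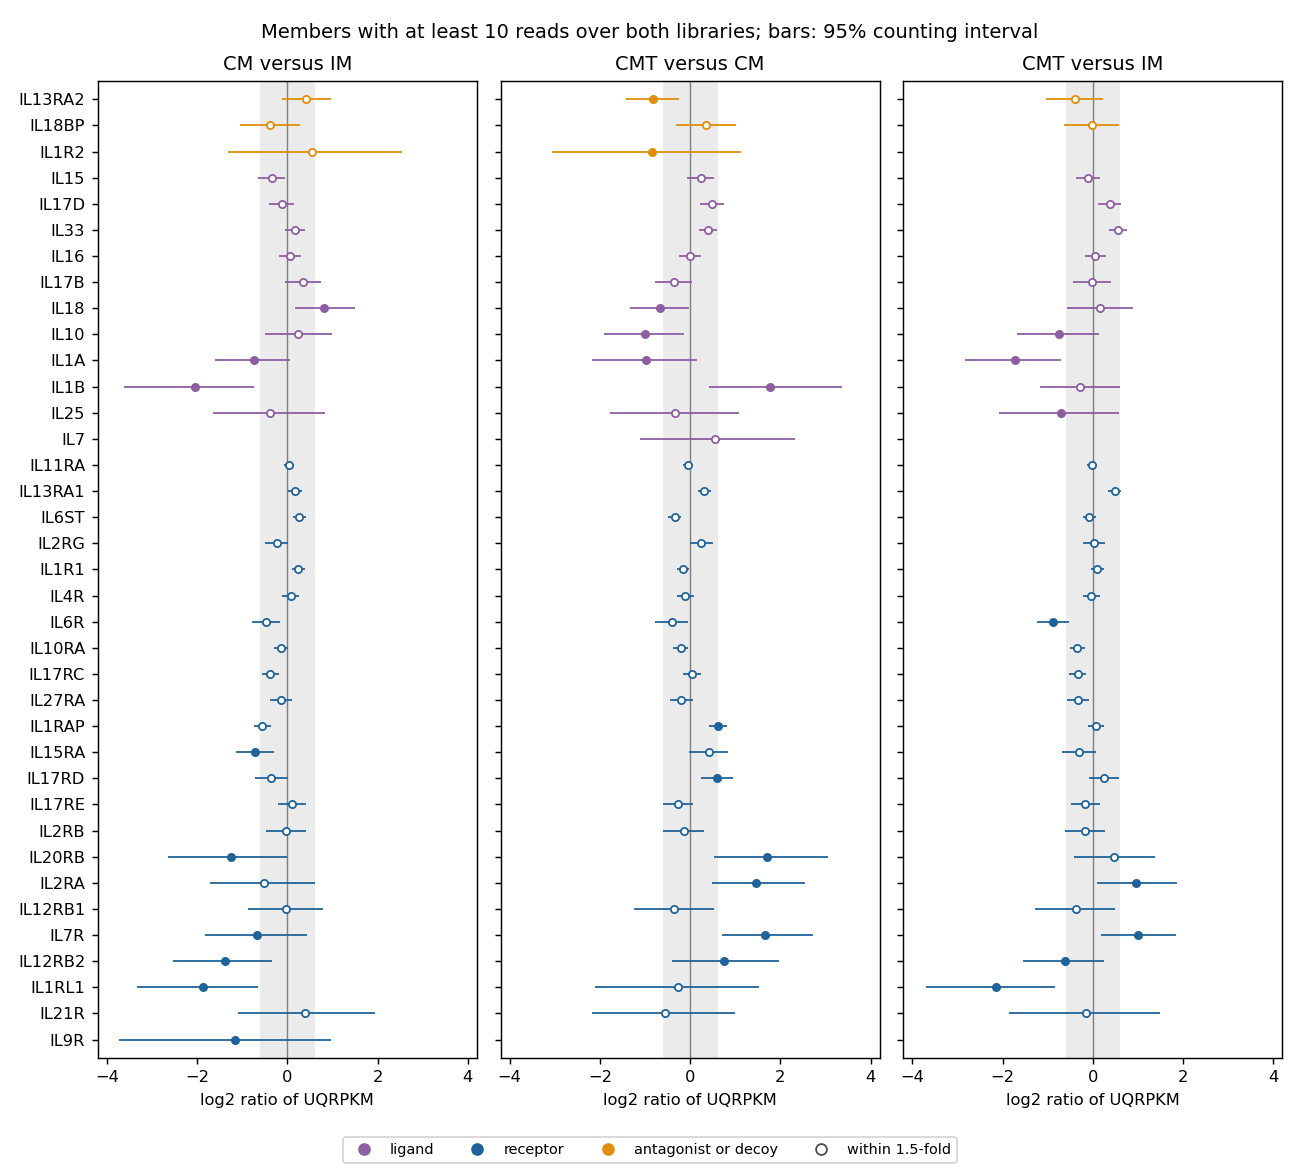
Log2 ratios of UQRPKM for members that could be called and had 10 or more reads in sum, 1 panel per comparison, with 95% counting intervals as bars, a grey band for changes within 1.5-fold and open points for members inside it. IL1B and IL1RL1 lie farthest to the left in CM versus IM at -2.05 and -1.88, IL1B, IL20RB and IL7R farthest to the right in CMT versus CM at 1.77, 1.71 and 1.66, and IL1RL1 and IL1A farthest to the left in CMT versus IM at -2.14 and -1.72.

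Genes of the intracellular pathway were counted by the same thresholds. Of 32 genes of interleukin signalling on the list, 31 were matched by name, and SOCS3 was listed at 0. In CM versus IM, 3 of 29 were called, all lower, in CMT versus CM 1 higher and 1 lower of 30, and in CMT versus IM 1 lower of 29, beside 18.8%, 19.5% and 20.7% of all mRNA genes in either direction. STAT5A, a transcription factor used by interleukin-2, interleukin-7 and interleukin-15, had 309, 193 and 125 UQRPKM and was called lower in every comparison. STAT5B, used by the same interleukins, had higher levels of 494, 451 and 476 UQRPKM and was not called in any comparison. STAT6, which acts below IL4R, had 132, 84.3 and 89.6. SOCS7, a member of the family that restrains cytokine signals, had 45.6, 19.6 and 34.7, so that CM was low. Of 7 matched genes that mature interleukin-1 ligands, NLRC4 was listed at 0 and 6 could be called. Only the inflammasome sensor NLRP3 was called, higher in CMT versus CM at 20.6 against 12.5 UQRPKM. In that comparison, 19.5% of all mRNA genes were called in either direction. CASP1, the protease that cuts IL1B and IL18, had 55.0, 43.1 and 55.0 UQRPKM.

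Relatives of the interleukins whose names fall outside the rule were also counted. Of 21 on the list, 15 were matched by name. In CM versus IM, 3 of 12 were called, all lower, beside 18.8% of all mRNA genes in either direction. In CMT versus CM 1 was higher and 1 lower of 11, beside 19.5%. In CMT versus IM 3 were lower of 11, beside 20.7%. CNTF, a ligand that signals through IL6ST, had 50.8, 69.0 and 38.6 UQRPKM from 102, 132 and 76 reads. LIF, another such ligand, had 9.86, 2.86 and 6.25 UQRPKM from 29, 8 and 18 reads, and EBI3, a subunit of interleukin-27, had 43.2, 24.5 and 21.1. OSM had 14, 7 and 1 reads, and its call as lower in CM versus IM had an interval that included 0. CSF1, at 254, 179 and 166 UQRPKM, was called lower in CMT versus IM.

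Markers of other cells moved between the same libraries. The summed level of 28 matched leukocyte markers was 2313, 2428 and 2151 UQRPKM, with CD163 listed at 0. Of 27 that could be called, 3 were higher and 3 lower in CM versus IM, 4 higher and 7 lower in CMT versus CM, and 1 higher and 4 lower in CMT versus IM. Over all mRNA genes, 18.8%, 19.5% and 20.7% were called in either direction in these comparisons. PTPRC, the marker of all leukocytes, had 99.3, 96.1 and 111 UQRPKM. T cell genes did not share a pattern. CD3E and LCK had 71.9, 49.2 and 82.8 and 67.1, 30.9 and 56.1, with CM low in both. CD3G, at 34.0, 38.9 and 53.0, was called higher in CMT versus IM, whereas CD4, at 11.7, 8.02 and 5.95, and CD8B, at 16.5, 20.5 and 7.08, were called lower there. CD3D, CD8A, CD2 and ZAP70 were not called in any comparison. Genes of macrophages and other myeloid cells were split. EMR1 had 45.6, 93.6 and 30.6, which set CM high. CM was also high for LOC100520753 (CD68), at 17.2, 42.9 and 22.2, and NCF1, at 60.3, 136 and 63.9. ITGAM, at 108, 138 and 73.5, was called lower in CMT versus CM only. CD14 had 390.0, 395 and 339, MRC1 had 109, 105 and 121, and CSF1R had 285, 246 and 221, none of them called in any comparison. The 10 neutrophil markers summed to 525, 4891 and 981 UQRPKM, and most of each sum came from S100A8, S100A9 and S100A12. S100A12 alone had 323, 2449 and 537. These 3 genes were called higher in CM versus IM, and the other markers did not share this rise. MMP9 was called lower, CXCR2 was not called at 5.08, 4.69 and 4.35, and LTF had 13, 2 and 9 reads. MMP8 had 0, 2 and 6 reads, ELANE and MPO rested on at most 1 read, and CSF3R was listed at 0. The part of these cells in the values of IL7R, IL2RA, IL1B, IL18 and the other members was not tested.

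Liver markers summed to 33.2, 9054 and 38.6 UQRPKM, with all 7 that could be called higher in CM versus IM and APOB listed at 0. Skeletal muscle markers summed to 114, 97.3 and 7267, with MB and CKM listed at 0. All 10 that could be called were higher in CMT versus CM, and all 9 in CMT versus IM. Mesothelial markers summed to 125, 239 and 559, with 4 of 6 called higher in CM versus IM, 6 of 7 higher and 1 lower in CMT versus CM, and LRRN4 listed at 0. Beside these sums, IL6R, which hepatocytes also express, had 181, 131 and 98.2 UQRPKM, and IL15, which skeletal muscle also makes, had 117, 91.9 and 108. Stromal and endothelial markers summed to 71978, 71038 and 69715, with 1 of 11 called between CM and IM, 2 between CMT and IM, and 0 when CMT was set against CM. The part of these tissues in the values of IL6R, IL15, IL33, IL20RB and the other members was not tested.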

How the data were processed

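Total RNA of VAT was pooled per group, and 1 single-end Ion Proton library per group was sequenced. After filtering, the authors aligned reads to the pig assembly Sscrofa 10.2 by MapSplice and deposited RPKM values scaled by the upper quartile (UQRPKM). The counting tool and annotation are not given in the sources used here. The 3 libraries were assigned by their sample titles. Reads were recovered with Python 3.11.15 and NumPy 2.4.6 as the smallest whole numbers that match the UQRPKM of a gene at lengths up to 120000 bases, which was possible for 100% of 20838 genes above 0 (largest relative error 7.65e-09). The recovery was tested on simulated data, where some reads came out too low and none too high, which widens intervals. Genes with few reads were left out of the simulation, so it is no check on the members with few reads. Intervals used SciPy 1.17.1. No pseudocount was used. The upper quartiles, up to a common factor, were 149, 142 and 146 for IM, CM and CMT.

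Named genes were the 10 ligands and 15 receptors with the highest mean, all members called or with an interval that excludes 0, and their textbook partners. The members, lists and partner ratios were chosen with earlier results of these data known. A gene of the signalling list is not reported here. All 67 names occur as symbols or synonyms in a RefSeq gene table of another build (Sscrofa11.1), so no coordinates or sequences are given. A further 11 interleukin symbols of that table, among them IL17RA, IL18R1 and IL34, were not analysed here.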

Additional observations from a re-analysis of the deposited data

How the results depend on the processing

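With 1 library per group, none of the calls has a replicate check in the sequencing data, and no replicate could be left out. No paired analysis was possible because each group has 1 library. A fold threshold of 2 left 5 members for castration (CM versus IM), 4 for CMT versus CM and 2 for CMT versus IM, beside 8.06%, 8.69% and 8.21% of all mRNA genes. Adding an exact binomial test on recovered reads, adjusted by Benjamini-Hochberg over all mRNA genes with reads to 0.05, left 5, 7 and 4. That test compares libraries, not conditions, and called 1432, 1498 and 1691 of all mRNA genes. The other alternatives, namely no minimum of UQRPKM, a pseudocount of 1, scaling by total UQRPKM and at least 10 reads, kept each count of members within 1.5 times. Under 2 other scalings and the pseudocount, 317 of 318 recomputed log2 ratios stayed within their counting interval, and no call changed direction. The exception was IL11RA in CMT versus IM, at 0.08 when scaled by the total recovered reads, a scaling that shifts all genes by 0.11 in that comparison. No other shift was larger, and a pseudocount only draws ratios towards 0. A call at 1.5-fold could therefore not change direction, and this outcome is no check on the calls. Members above 0 in all libraries numbered 39, and 35 with at least 1 UQRPKM or at least 3 reads. Depth limits members with few reads, such as IL1RL1, whose log2 ratio in CMT versus CM had an interval from -2.11 to 1.54.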
